A study of Mus musculus with 12 samples.

Results

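Kinesins are microtubule motor proteins that share a conserved motor domain. The kinesin genes described here are the gene symbols of the mRNA table that begin with Kif followed by a number, with at most 1 further letter and digit, or with Kifc followed by a number. The rule found 42 of the 41255 genes in that table, among them the pseudogene *Kifc5c-ps*. Of the 42, 30 were also listed among the 10080 genes with ribosome footprints. *Kif24* is set against the rest of the family.

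The mRNA and the ribosome-protected fragments (RPF) were sequenced from 6 clones of Ba/F3, a mouse lymphoid cell line that depends on interleukin 3. Each clone grew from a single cell and expressed human *RPL10* cDNA from a retroviral vector, while an shRNA knocked down the endogenous *Rpl10* gene in both genotypes. Clones 11, 13 and 35 carried the *RPL10 R98S* mutation and clones 28, 29 and 36 carried *RPL10 WT*, which gives 1 mRNA and 1 RPF library per clone and 12 libraries in all. All clones were treated with cycloheximide (100 µg/ml for 5 min) before lysis. The replicates are clones, so each p-value measures a difference against the spread between clones.

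Kinesins use ATP to move along microtubules or to shorten them from their ends. In dividing cells, members of the family push spindle poles apart, align chromosomes and build the midzone where cytokinesis takes place. Other members carry vesicles, organelles and RNA, and some work in cilia and at centrioles. *Kif24* belongs to the microtubule-shortening kinesin-13 group and acts at the mother centriole, where it binds the cap protein CP110 and restrains the assembly of a primary cilium.

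The values are gene counts that the authors divided by a size factor for each library, so that 1 read of a library has a fixed worth and whole reads can be recovered. The mRNA library of WT clone 28 held 6617457 reads, against 20576796 to 23136595 in the other mRNA libraries. The RPF libraries held 3477723 reads (R98S clone 35) to 10883086 reads (R98S clone 11). Kinesins took 0.185% (WT clone 28) to 0.270% (WT clone 29) of the mRNA reads, and 0.212% (WT clone 36) to 0.299% (WT clone 29) of the RPF reads. The genotypes overlapped in both shares.

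The label of the cell type was checked against genes of pro-B cells and of the interleukin 3 receptor. The receptor gene *Csf2rb* was at 64432, 52827 and 62753 in the R98S clones and 21027, 48871 and 30118 in the WT clones, and the B cell receptor gene *Cd79a* was at 730.4 (WT clone 36) to 1357 (R98S clone 35). Of the list's 6 genes that passed the mRNA filter, mRNA changes were above 0 for 4 and below 0 for 2, with 1 called higher in limma (3.03% of all genes), and RPF was called higher for 2 (3.13% of all genes) and lower for 1, *Ptprc* (-1.19, limma adjusted p = 0.0157; 4.62% of all genes). *Pax5* and *Rag1* were at 0 in all clones, and *Ebf1*, *Vpreb1* and *Igll1* were at or below 2.69. The summed mRNA of 6 T cell genes was 144, 146 and 136 in the R98S clones and 69.8, 55.3 and 50.9 in the WT clones, and that of 5 mast cell and basophil genes was 738, 287 and 1096 in the R98S clones and 139.6, 214 and 98.7 in the WT clones. *Cpa3* made up most of the mast cell and basophil sum in R98S clones 11, 13 and 35 (644, 253 and 787). *Cpa3* was at 174 in WT clone 29 and 54.9 in WT clone 36, and *Mcpt8* alone gave 69.8 in WT clone 28. Without *Cpa3*, the sum of R98S clone 13 was below those of all WT clones. Of 5 neuronal genes none passed the filter, and their sum, nearly all of it *Tubb3*, was at most 14.8. For 6 myeloid genes it was 1.59, 6.55 and 27.5 in the R98S clones and 473, 34.6 and 54.1 in the WT clones, where *Cd14* alone gave 429.7 in WT clone 28. *Csf2rb* and the T cell sum were thus higher in all R98S clones than in all WT clones, and the myeloid sum was lower. The mast cell and basophil sum was higher in all R98S clones only with *Cpa3* included. Marker genes of other cell types thus differed along with the genotype. Whether this bears on the kinesin changes was not tested. *Map2*, *Syt1*, *Rbfox3* and *Kit* were at 0 in all clones.

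Of the 42 kinesin genes, 6 were at 0 in all mRNA libraries (*Kif12*, *Kif19a*, *Kif21a*, *Kif2b*, *Kif6*, *Kifc5c-ps*) and 5 more had a mean below the minimum of 10 normalized counts (*Kif1a*, *Kif26a*, *Kif26b*, *Kif27*, *Kifc3*). This left 31 kinesins tested for mRNA, 27 for RPF and 26 for translation efficiency (TE, the ratio of RPF to mRNA in a clone), which required at least 10 in each of the 12 libraries. Tests used limma over all genes on log2(value + 1), a scale that understates the change of genes with low values, and a false discovery rate of 0.1. The mRNA of 2 kinesins was called changed (*Kif24* and *Kif17*, both higher in R98S clones), against 6.94% of all 11344 genes tested (3.03% higher and 3.91% lower). RPF of 2 kinesins was called (*Kif17* higher and *Kif23* lower), against 7.76% of 9580 genes (3.13% higher and 4.62% lower). TE was called for 1 kinesin, *Kif24*, and for 2 of 9043 genes in all, which is 0.0221%, both lower.

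By edgeR on whole reads the kinesins called were 2 for mRNA, 2 for RPF and 1 for TE, against 7.10%, 8.43% and 0.0332% of all genes, and by DESeq2 they were 3, 3 and 1, against 11.3%, 11.4% and 0.597%. At an unadjusted p under 0.05 in limma there were 4, 5 and 1 kinesins, against 17.9%, 20.3% and 7.85% of all genes. R98S and WT clones were fully apart in the mRNA of 5 of 31 kinesins (*Kif24*, *Kif17*, *Kif22*, *Kif2c* and *Kif5a*, all higher in R98S clones; 23.5% of all genes), in the RPF of 4 of 27 (*Kif17* higher, *Kif23*, *Kif13b* and *Kif3a* lower; 25.3%) and in the TE of 4 of 26 (*Kif24*, *Kif22* and *Kif18b* lower, *Kif13a* higher; 14.8%). The median log2 change of the tested kinesins, R98S minus WT, was 0.17 for mRNA (all genes 0.01), -0.12 for RPF (all genes 0.01) and -0.22 for TE (all genes 0.00). Without *Kif24* the median TE change of the family was -0.19. With 1 clone left out at a time, the family medians were 0.00 to 0.25 for mRNA (lowest without WT clone 28, 0.01 without R98S clone 13), -0.15 to -0.07 for RPF and -0.30 to -0.10 for TE (nearest 0 without R98S clone 13, -0.11 without WT clone 28). Bulk libraries cannot tell fewer cells with a transcript from less of it per cell.

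Levels were compared between genes only per length, as mRNA normalized counts per kb of exon, averaged over the WT clones. By this measure the most abundant kinesin mRNAs were *Kif11* (1143), the motor that slides spindle poles apart, and *Kif5b* (1106), the ubiquitous heavy chain of kinesin-1. They were followed by *Kif15* (772), which also works on the spindle, and by *Kif23* (689) and *Kif20b* (663), which act in cytokinesis. *Kif11* and *Kif5b* overlapped from clone to clone, as did *Kif15*, *Kif23*, *Kif20b* and the chromokinesin gene *Kif22* (654), so neither set can be fully ranked within itself. *Kif15* was above *Kif20b* in each WT clone, while the other orders within the sets differed between WT clones. Within the cilium and centriole group, *Kif24* was at 49.8 per kb in WT clones and 321 per kb in R98S clones. In WT clones this was above the mRNA per kb of 19.7% of all genes that passed the filter, and *Kif7*, a regulator of Hedgehog signalling at the cilium tip, lay beside it at 46.3 with overlapping WT clones. Of the kinesins outside these roles, *Kif12* was at 0, *Kif26a* had a single read in all, and *Kif26b* reached 11.8 normalized counts in WT clone 36 and at most 4.12 in the other clones.

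**Figure D1:**
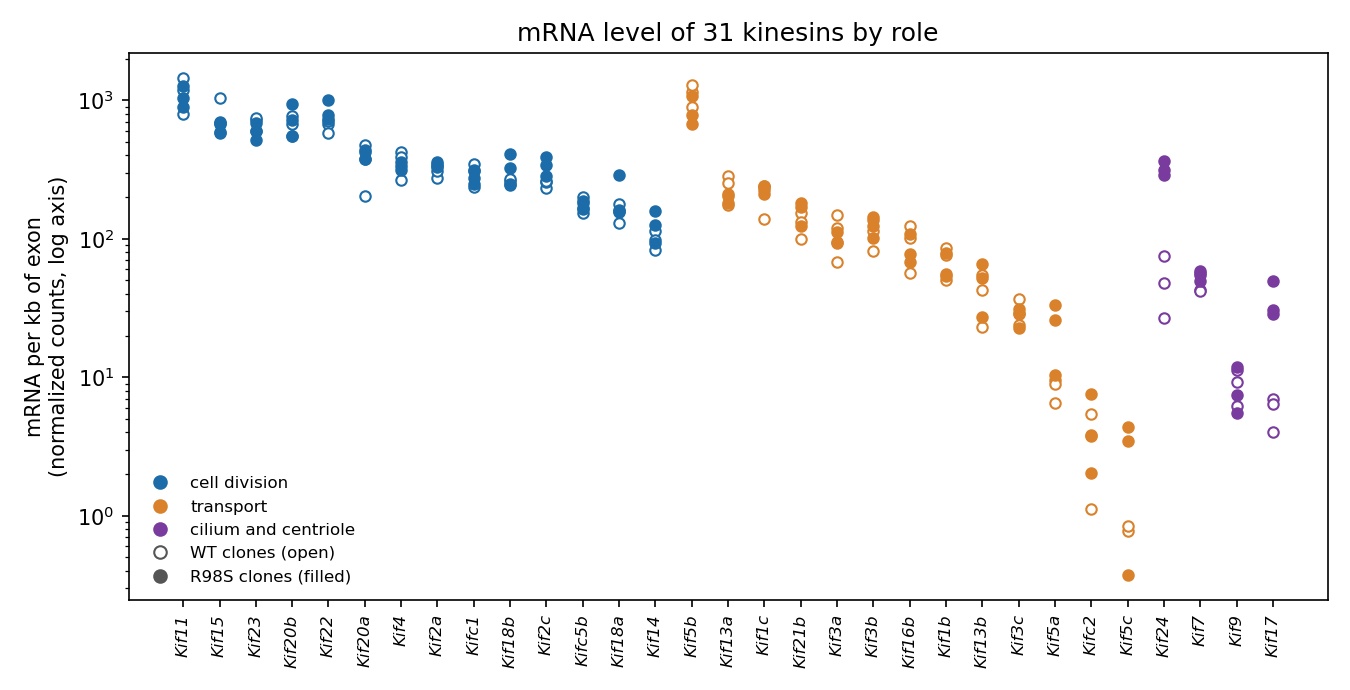
mRNA normalized counts per kb of exon (log axis) of the 31 kinesins tested, grouped by role, with 1 open circle for each WT clone and 1 filled circle for each R98S clone; *Kif5c* in WT clone 36 was 0 and is not drawn. The 3 filled circles of *Kif24* and of *Kif17* lie above their open circles.

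*Kif24* lies on the minus strand of chromosome 4 (GRCm38, chr4:41390745-41464887). Its longest coding transcript has a 5′ untranslated region of 155 bases that holds 0 ATG upstream of the start codon, and a coding sequence of 4068 bases. The 30 bases around the start codon (which is in capitals) are shown for *Kif24*, for *Kif17*, whose mRNA also rose, for *Kif2c*, a close relative of *Kif24*, and for *Kif23*, whose RPF fell, because translation starts at this codon (GENCODE transcripts, GRCm38, strand of the gene).
Kif24: cctggtcaggaaATGgcatcctggttatat
Kif17: ccccgggcagccATGgcctcggagtcagtg
Kif2c: gttcctgagtccATGgagtcgcttcacgca
Kif23: gagcctgcggtcATGaagtcagcgaaggct

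*Kif24*, *Kif17* and *Kif23* have a G 3 bases before the ATG, and *Kif24*, *Kif17* and *Kif2c* have a G directly after it. The stretches before the RefSeq gene start of both kinesins whose mRNA rose are given next, without bases of annotated exons, from the promoter table of RefSeq (GRCm38.p6), to let a reader compare them. They are chr4:41464920-41465080 on the minus strand and chr4:138262001-138262231 on the plus strand, which lies within the GENCODE span of *Kif17*. The *Kif24* stretch fills the 161 bases between *Kif24* and *Nudt2*, a gene that runs the opposite way. It therefore lies before the start of *Nudt2* as well. Capitals mark CCAAT and GGGCGG on either strand.
Kif24: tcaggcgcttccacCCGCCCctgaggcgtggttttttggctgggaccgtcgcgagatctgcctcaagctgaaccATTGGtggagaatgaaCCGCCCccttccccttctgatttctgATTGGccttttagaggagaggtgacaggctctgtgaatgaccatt
Kif17: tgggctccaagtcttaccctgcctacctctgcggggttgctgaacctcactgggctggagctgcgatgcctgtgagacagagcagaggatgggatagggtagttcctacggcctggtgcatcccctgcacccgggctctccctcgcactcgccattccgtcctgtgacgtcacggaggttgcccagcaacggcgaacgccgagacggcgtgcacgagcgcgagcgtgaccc

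The *Kif24* stretch holds 2 CCAAT and 2 GGGCGG, and the *Kif17* stretch shown holds neither. In windows from 250 bases before to 50 bases after the gene start, which also cover exon bases, *Kif17* does hold GGGCGG. In these windows CCAAT was found for 41.1% and GGGCGG for 38.2% of all genes of the table, and for 43.3% and 68.7% of those that passed the mRNA filter.

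*Kif24* mRNA was 2097, 1646 and 1793 in R98S clones 11, 13 and 35 and 153, 431 and 273 in WT clones 28, 29 and 36. All R98S clones were higher than all WT clones, with means of 1845 ± 229.7 and 286 ± 139.6 (SD, n = 3 each). The change was 2.80 ± 0.33 (log2, SE), with an adjusted p of 0.00191 in limma, and the exact two-sided permutation p was 0.1, the smallest that 3 against 3 clones allow. *Kif24* RPF was 66.5, 62.0 and 97.4 in R98S clones 11, 13 and 35 and 117, 138 and 72.5 in WT clones 28, 29 and 36. These values overlapped, since R98S clone 35 was above WT clone 36, and they rest on 55 to 133 reads per library. The RPF change was -0.51 ± 0.30 with a limma adjusted p of 0.376 (exact two-sided permutation p = 0.2), and no change of footprints could be detected beside the higher mRNA. Over the alternatives the RPF change was -0.78 to -0.31 and was never called.

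**Figure D2:**
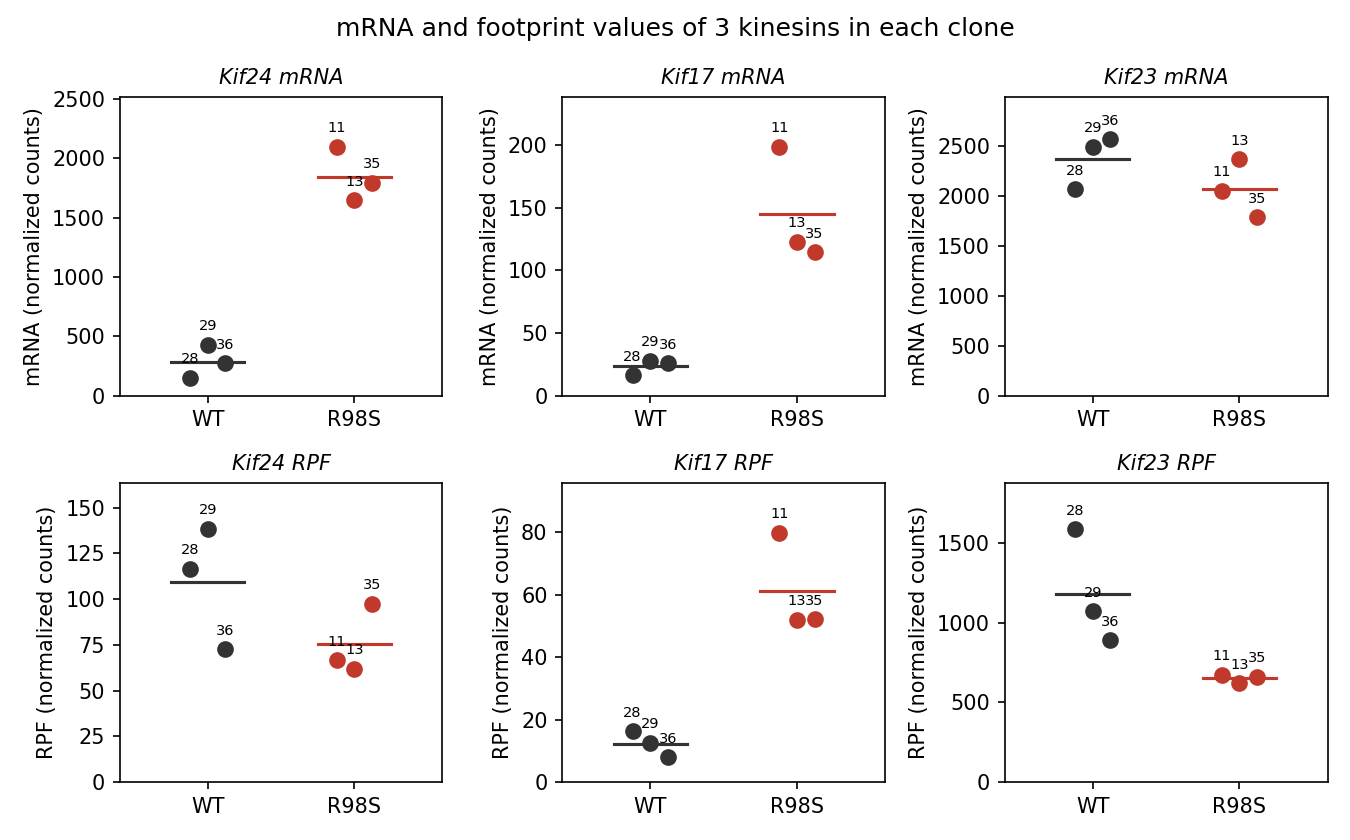
mRNA (upper row) and RPF (lower row) normalized counts of *Kif24*, *Kif17* and *Kif23* in each clone, with the clone number over each point and the mean as a line. *Kif24* differs between genotypes in mRNA, *Kif17* in both and *Kif23* in RPF.

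The ratio of RPF to mRNA of *Kif24* was 0.0317, 0.0377 and 0.0543 in R98S clones 11, 13 and 35 and 0.761, 0.321 and 0.265 in WT clones 28, 29 and 36. The R98S clones lay close together and below all WT clones, among which clone 28 was the highest. The mRNA value of WT clone 28 rests on 57 *Kif24* reads, against 349 to 2641 in the other clones. Both tables were normalized separately, so the ratio has no absolute scale and is read only between clones or genes. The TE change was -3.31 ± 0.38 (log2, SE; limma adjusted p = 0.0547; exact two-sided permutation p = 0.1) and the largest in size of all 9043 genes tested. Across the alternatives of the test the adjusted p ran from 5.18e-15 (DESeq2) to 0.409. The call ended without R98S clone 11 (limma adjusted p = 0.409), 13 (0.155) or 35 (0.118) or WT clone 29 (0.156), with changes of -3.14, -3.27, -3.53 and -3.47. Without WT clone 28, which has the shallowest mRNA library, the change was -2.85 (adjusted p = 0.00960 in limma).

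In every R98S clone *Kif24* had the lowest log2 ratio of RPF to mRNA of the 26 kinesins tested. It lay -3.35, -2.78 and -2.74 (log2) from the median of the other 25 in R98S clones 11, 13 and 35. In WT clones 28, 29 and 36 it lay 0.67, 0.01 and -0.21 from that median, with 18, 13 and 12 of the 25 below it. By this ratio, which is not corrected for length, *Kif24* was thus near the middle of its family in WT clones and under all of it in R98S clones. With the density per length described below, *Kif24* was at 0.43, -0.70 and -0.96 in WT clones 28, 29 and 36. The median over the kinesins was 0.07, -0.45 and -0.73 there, so *Kif24* was below it in WT clones 29 and 36. The TE changes of the other 25 ran from -0.78 (*Kif13b*, adjusted p = 0.647 in limma) to 0.42 (*Kif13a*, adjusted p = 0.660), and none was called. With 1 clone left out at a time, the *Kif13b* change was -1.07 to -0.31, the latter without WT clone 28, and the *Kif13a* change was 0.20 to 0.56. Its closest relatives in the kinesin-13 group, *Kif2a* and *Kif2c*, which act on spindle and kinetochore microtubules, had TE changes of -0.09 and -0.35.

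Per length, RPF over mRNA can also be ordered between genes, as RPF per kb of coding sequence over mRNA per kb of exon, relative to the median gene of the same clone. In WT clones the kinesins with the highest relative density (log2, mean ± SD, n = 3) were *Kif20a* at 1.17 ± 0.86, which brings Aurora B to the spindle midzone, *Kif13b* at 0.93 ± 0.76, *Kif3c* at 0.39, *Kif1b* at 0.29 and *Kif2c* at 0.23. The lowest were *Kifc1* (-2.22), *Kif13a* (-1.57), *Kif20b* (-1.55), *Kif1c* (-1.47) and *Kif3b* (-1.22). The 5 highest means rest in part on WT clone 28, which had the highest value of each. In WT clones 29 and 36 *Kif20a* was at 0.73 and 0.62 and *Kif13b* at 0.60 and 0.39, and *Kif22*, at 0.26 and 0.14, was above *Kif3c* (0.12 and 0.08) and *Kif2c* (0.11 and -0.01). Compared within each clone, *Kif20a* was above *Kif13b* in all 6 clones, and *Kif3c* was above *Kif2c* in all WT clones, while the order of *Kif1b* and *Kif22* among them differed from clone to clone. Among the lowest, *Kif1c* was at -2.47 in WT clone 28 but at -1.09 and -0.86 in WT clones 29 and 36, where *Kif18a* (-1.45 and -1.43) was lower than both *Kif1c* and *Kif3b*. *Kif24* was at 0.43, -0.70 and -0.96 in WT clones 28, 29 and 36, a mean of -0.41 ± 0.74 that clone 28 raised, above 34.5% of 8784 genes. In R98S clones it was at -3.74 ± 0.40, above 0.0683% of them. *Kifc1* and its close copy *Kifc5b* share 74.0% and 69.9% of the stretches of 30 bases in their coding sequences with other genes. For *Kif11*, *Kif2c* and *Kif22* this share was 11.6%, 7.59% and 4.25%, and for *Kif24* it was 0%. The study kept only primary alignments above a cut on mapping quality. Reads that fit *Kifc1* and *Kifc5b* equally well may therefore be missing from the counts of both. How far this affects their low relative density was not tested.

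**Figure D3:**
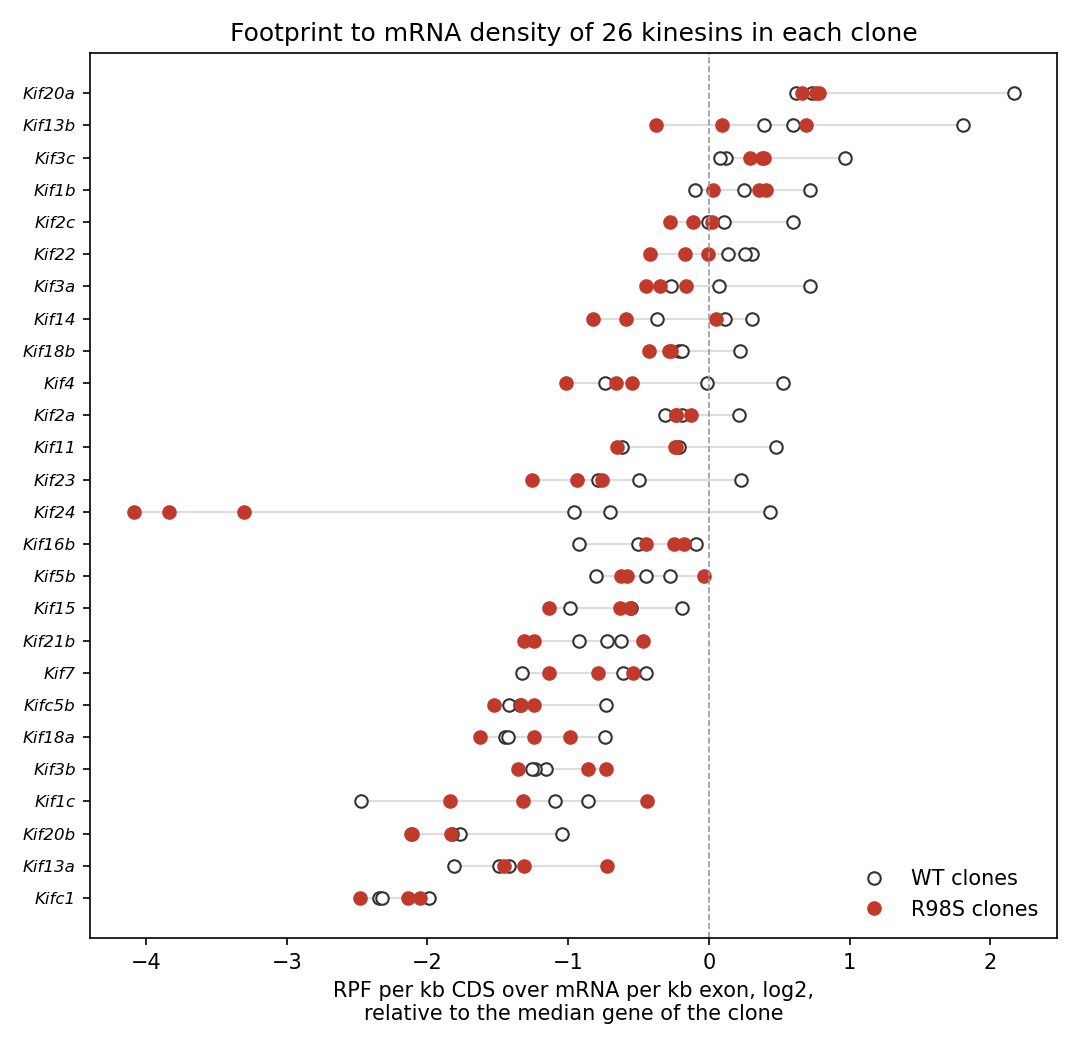
Relative density of the 26 kinesins tested for TE, as RPF per kb of coding sequence over mRNA per kb of exon (log2, relative to the median gene of the clone), with genes ordered by the mean of the WT clones. The R98S clones of *Kif24* lie between -4.08 and -3.31, and no other kinesin lies below -2.48 in any clone.

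In the RefSeq annotation the end of *Kif24* lies 197 bases from that of the convergent gene *Ubap1*. Whether mRNA reads were counted by strand was not stated, so which gene received reads that run past an end is uncertain. *Ubap1* mRNA was 1167, 1221 and 1119 in the R98S clones and 784, 920.5 and 907 in the WT clones, a change of 0.43 (limma adjusted p = 0.207). The values did not overlap between genotypes, but the difference was smaller than that of *Kif24*. *Nudt2* runs away from the start of *Kif24*, with 161 bases between them, and its mRNA was 337, 353 and 414 in the R98S clones and 384, 391 and 385 in the WT clones (change -0.08, limma adjusted p = 0.882). Of 22 genes within 200 kb of *Kif24*, 6 passed the mRNA filter (*Ube2r2*, *Ubap2*, *Dcaf12*, *Ubap1*, *Nudt2* and *Fam219a*), and their mRNA changes ran from -0.08 to 0.43 with none called in limma (3 at an unadjusted p under 0.05, 0 by edgeR and 0 by DESeq2, where the shares of all genes were 17.9%, 7.10% and 11.3%). The mRNA changes were above 0 for 5 and below 0 for 1 (median 0.37, all genes 0.01). RPF changes were above 0 for all 6 (median 0.52, all genes 0.01). Of all genes, 51.4% were above 0 in mRNA and 51.2% in RPF. RPF was called higher for 2 of 6, against 3.13% of all genes: *Ube2r2* (1.03 ± 0.21, limma adjusted p = 0.0258) and *Dcaf12* (0.78 ± 0.23, 0.0906), both part of ubiquitin ligase systems. The call of *Ube2r2* ended without R98S clone 11 (0.115) or 13 (0.107), and that of *Dcaf12* without R98S clone 11 (0.285), 13 (0.286), WT clone 28 (0.224) or 36 (0.196) (limma adjusted p in brackets). RPF of *Ubap1* (0.72, limma adjusted p = 0.105) was called by DESeq2 (0.0758) and in limma without WT clone 29 (0.0795). The counts are sums over exons for mRNA and over coding sequence for RPF, so they do not show where in *Kif24* the added mRNA reads lie.

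*Kif17*, a kinesin-2 motor of cilia and of neuronal transport, was the other kinesin with changed mRNA. It lies on the same chromosome as *Kif24* but far from it (chr4:138250435-138301967). Its mRNA was 198, 123 and 114 in R98S clones 11, 13 and 35 and 16.1, 28.0 and 25.9 in WT clones 28, 29 and 36. Its RPF was 79.8, 52.0 and 52.1 in R98S clones 11, 13 and 35 and 16.2, 12.5 and 7.91 in WT clones 28, 29 and 36. The R98S clones were above all WT clones in both. The RPF values of *Kif17* rest on as few as 6 reads in a library. In WT clone 28, 1 mRNA read was worth 2.69, so the value of 16.1 also rests on few reads. The mRNA rose by 2.58 ± 0.36 (log2, SE; limma adjusted p = 0.00487) and RPF by 2.26 ± 0.38 (limma adjusted p = 0.0123). After the chromosome median was removed, the *Kif24* mRNA change was 2.68 (limma adjusted p = 0.00358). The *Kif17* changes were then 2.46 in mRNA and 2.05 in RPF (limma adjusted p = 0.00759 and 0.0173). The ratio of RPF to mRNA was 0.402, 0.423 and 0.455 in the R98S clones and 1.01, 0.446 and 0.306 in the WT clones, where the genotypes overlapped. TE of *Kif17* was below the filter on low values, and without that filter its change was -0.32 (limma adjusted p = 0.810). For *Kif17* footprints rose together with mRNA, whereas for *Kif24* only the mRNA change was called.

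**Figure D4:**
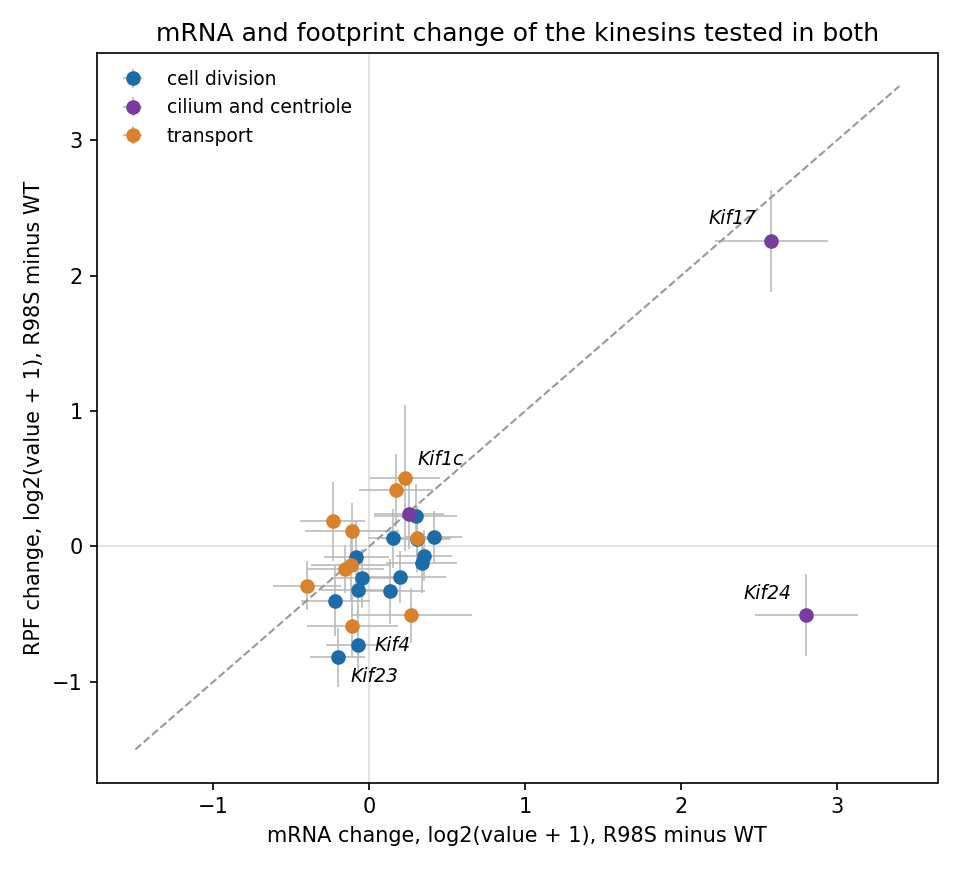
Change of mRNA (x axis) and of RPF (y axis), R98S minus WT on log2(value + 1), for the 27 kinesins tested in both, coloured by role, with standard errors as bars and equal change as a dashed line. *Kif17* lies near the dashed line at 2.58 and 2.26, and *Kif24* lies under it at 2.80 and -0.51.

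Of the 7 kinesins of the cilium and centriole group, *Kif6* and *Kif19a* were at 0 and *Kif27* was under the filter. *Kif7* mRNA was 261, 227 and 269.9 in the R98S clones and 249.7, 195 and 191 in the WT clones, and its RPF was 79.8, 88.0 and 124 in the R98S clones and 69.7, 93.7 and 80.4 in the WT clones. The genotypes overlapped in both, with changes of 0.26 and 0.24 (limma adjusted p = 0.602 and 0.644). *Kif9* mRNA was 23.8 (R98S clone 11) to 50.8 (R98S clone 13), and its RPF was below the filter. The partners of *Kif24* at the centriole cap were also examined. All 7 listed genes were tested, and none was called for mRNA, RPF or TE in limma, with 0, 0 and 1 at an unadjusted p under 0.05 (17.9%, 20.3% and 7.85% of all genes) and 0 by edgeR and by DESeq2. *Ccp110*, which encodes CP110, had changes of 0.30 in mRNA and 0.39 in RPF (limma adjusted p = 0.475 and 0.401), and *Cep97*, which binds CP110, 0.65 and 0.26 (0.35 to 0.95 and 0.09 to 0.46 over the alternatives). For *Ccp110* the changes were 0.23 to 0.42 and 0.21 to 0.53 over the alternatives. *Cep290* had the largest TE change of the list, at -0.83 (limma adjusted p = 0.629; -1.18 to -0.59 over the alternatives), followed by *Cep97* (-0.39; -0.67 to -0.19) and *Mphosph9* (-0.35; -0.54 to -0.23). RPF of *Cep290* (-0.60, adjusted p = 0.452) was called in limma only without R98S clone 35 (-1.06, 0.0991).

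The kinesins of cell division were a group of 15 genes, of which 14 were tested for mRNA, RPF and TE while *Kif2b* was at 0. None was called for mRNA in limma (1 at an unadjusted p under 0.05, 0 by edgeR and 0 by DESeq2, where the shares of all genes were 17.9%, 7.10% and 11.3%), and the changes ran from -0.22 (*Kif15*) to 0.41 (*Kif2c*). Many genes of mitosis carry the cell cycle homology region, a promoter element whose core is TTTGAA. The letters TTTGAA, on either strand, were found in the promoter windows of 11 of 13 cell division kinesins in the table, 0 of 8 transport kinesins and 0 of 4 cilium and centriole kinesins that passed the mRNA filter. The share was 14.3% among all genes that passed it and 20.2% among all genes of the table. CCAAT was found for 8 of the 13, against 43.3% of all genes that passed the filter. The 30 bases around the match, in capitals, are shown for *Kif11*, *Kif15*, *Kif23* and *Kif20b*, which are among the cell division kinesins with the most mRNA per kb (GRCm38.p6, in the direction of the gene), as an example of the shared letters. They are chr19:37376351-37376380 (*Kif11*), chr9:122951050-122951079 (*Kif15*) and chr19:34922353-34922382 (*Kif20b*) on the plus strand and chr9:61946780-61946809 (*Kif23*) on the minus strand.
Kif11: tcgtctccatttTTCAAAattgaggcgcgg
Kif15: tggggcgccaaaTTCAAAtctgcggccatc
Kif23: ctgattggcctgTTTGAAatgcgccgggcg
Kif20b: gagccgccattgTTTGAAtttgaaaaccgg

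Capitals mark 1 match per gene, and each lies within 20 bases of the annotated gene start. A second match in *Kif20b* follows directly in lower case, *Kif15* has a further match at -234 relative to the gene start, and the only matches of *Kif14* and *Kif2c* lie at -228 and -103. *Kif24* and *Kif17* had no such match in their windows.

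*Kif23*, the motor subunit of the centralspindlin complex that organizes the spindle midzone, had RPF values of 673, 621 and 659.9 in R98S clones 11, 13 and 35 and 1587, 1073 and 891 in WT clones 28, 29 and 36. All R98S clones were below all WT clones, and the R98S values lay close together while clone 28 stood above the other WT clones. The change was -0.82 ± 0.22 (log2, SE; limma adjusted p = 0.0637). The call ended without R98S clone 11 (0.167) or 13 (0.224) or WT clone 28 (0.150; limma adjusted p each), with changes of -0.84, -0.79 and -0.59. *Kif23* mRNA was 2051, 2362 and 1782 in the R98S clones and 2062, 2486 and 2562 in the WT clones, and these values overlapped (change -0.20 ± 0.18, limma adjusted p = 0.606). Its TE change was -0.62 ± 0.29 (limma adjusted p = 0.635; -0.86 to -0.29 over the alternatives). *Kif4*, a chromokinesin that also works at the midzone, had RPF of 554, 465 and 687 in the R98S clones and 1117, 1148 and 626 in the WT clones, with a change of -0.73 ± 0.25 that was not called in limma (adjusted p = 0.140). R98S clone 35 and WT clone 36 overlapped. DESeq2 on whole reads called it (adjusted p = 0.0490), as did limma without R98S clone 35 (0.0901) or WT clone 36 (0.0654), within an adjusted p range of 0.0490 to 0.413 over the alternatives. The TE change of *Kif4* was the lowest of the cell division kinesins, at -0.66 ± 0.32 (limma adjusted p = 0.635), or -1.01 to -0.31 over the alternatives.

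Across the 14 cell division kinesins, the TE change was below 0 for 13 and above 0 for 1, with a median of -0.30, while 49.8% of all genes tested were above 0. The median was -0.18 for RPF and 0.14 for mRNA, and with 1 clone left out -0.28 to -0.06 (nearest 0 without WT clone 28) and -0.01 to 0.24 (below 0 without R98S clone 13). None of the 14 passed the TE test (lowest limma adjusted p 0.635; 0 at an unadjusted p under 0.05, 0 by edgeR and 0 by DESeq2). WT clone 28 was the lowest clone in mRNA for 8 of 14 genes, and its mRNA library was the shallowest. In RPF it was the highest clone for 5 genes, as was WT clone 29. Without WT clone 28 the median TE change of the group was -0.11, with 10 of 14 below 0, so much of the printed shift rests on this clone. The median was larger in size without WT clone 29 (-0.38) or WT clone 36 (-0.49). In WT clone 28 the median relative density over the kinesins was 0.07, against -0.45 and -0.73 in WT clones 29 and 36 and -0.58, -0.80 and -0.46 in the R98S clones. *Kif22*, a chromokinesin, and *Kif18b*, which shortens astral microtubules, had TE changes of -0.42 ± 0.19 and -0.25 ± 0.21, with all R98S clones below all WT clones. The other cell division kinesins were *Kif11*, *Kif15*, *Kif14*, *Kif18a*, *Kif20a*, *Kif20b*, *Kif2a*, *Kif2c*, *Kifc1* and *Kifc5b*, with mRNA changes of -0.22 to 0.41, RPF changes of -0.40 to 0.23 and TE changes of -0.46 to 0.01.

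Among 22 other genes of the spindle and of cytokinesis, all tested, 0 were called for mRNA and 0 for TE in limma, with 3 and 3 at an unadjusted p under 0.05 (17.9% and 7.85% of all genes), 0 and 0 by edgeR and 1 and 1 by DESeq2 (11.3% and 0.597%). RPF was lower for 2 of 22 in limma (5 at an unadjusted p under 0.05, 4 by edgeR and 5 by DESeq2, where the shares of all genes were 20.3%, 8.43% and 11.4%), against 4.62% of all genes: *Anln* (-0.82 ± 0.20, limma adjusted p = 0.0470), which encodes the scaffold anillin of the contractile ring, and *Ccnb1* (-0.62 ± 0.19, 0.0969), the mitotic cyclin B1. The *Anln* call ended without R98S clone 11 (0.125), 13 (0.183) or WT clone 28 (0.119), and the *Ccnb1* call without R98S clone 11 (0.234), 13 (0.279), 35 (0.113), WT clone 28 (0.237), 29 (0.137) or 36 (0.107) (limma adjusted p in brackets). The median TE change of this list was -0.33, with 20 of 22 below 0, and without WT clone 28 it was -0.12, with 17 below 0. *Mki67*, the proliferation marker Ki-67, had the largest TE change among them, at -1.05 ± 0.30 (limma adjusted p = 0.629; DESeq2 0.0871), followed by *Hmmr* (-0.63) and *Incenp* (-0.62). Without WT clone 28 these changes were -0.88, -0.19 and -0.40. RPF of *Mki67* (-0.90 ± 0.28, limma adjusted p = 0.1005) was called in 5 of 11 alternatives (0.0124 to 0.353), among them without R98S clone 35 (0.0943) or WT clone 36 (0.0550), and RPF of *Hmmr* (-0.65, 0.213) by DESeq2 and without WT clone 36 (0.0654). The largest mRNA changes of the list were those of *Plk1* (0.55 ± 0.18), *Cdc20* (0.43 ± 0.16) and *Racgap1* (-0.41 ± 0.16), the partner of *Kif23* in centralspindlin (limma adjusted p = 0.128, 0.204 and 0.199). *Plk1* was called by DESeq2 (0.0603) and in limma without R98S clone 35 (0.0939), and mRNA changes were above 0 for 12 and below 0 for 10 genes of the list.

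Of the 16 transport kinesins, 13 were tested for mRNA, 10 for RPF and 10 for TE, and none was called in limma. At an unadjusted p under 0.05 there were 1, 2 and 0, against 17.9%, 20.3% and 7.85% of all genes, by edgeR none, and by DESeq2 1, 0 and 0, against 11.3%, 11.4% and 0.597%. *Kif21a* was at 0, *Kif1a* and *Kifc3* were under the filter, and *Kifc2* (3.92 to 26.7) was not in the RPF table. *Kif5b* mRNA was 4063, 4757 and 6481 in the R98S clones and 5352, 6885 and 7780.0 in the WT clones, which overlapped, with the lowest change among kinesin mRNAs at -0.40 ± 0.22 (limma adjusted p = 0.387). *Kif5a* and *Kif5c*, the kinesin-1 heavy chains known from neurons, were far less abundant. *Kif5a* mRNA was 234, 180.2 and 73.1 in the R98S clones and 45.7, 66.8 and 62.7 in the WT clones, and *Kif5c* mRNA was 23.8, 30.3 and 2.58 in the R98S clones and 5.37, 5.77 and 0 in the WT clones. All R98S clones were above the WT clones for *Kif5a*, most of all clones 11 and 13, and R98S clone 35 overlapped with WT clones for *Kif5c*. The changes were 1.32 ± 0.43 and 2.00 ± 1.03 (limma adjusted p = 0.133 and 0.352), and their RPF was below the filter. *Kif5c* passed the mRNA filter only through R98S clones 11 and 13 (means 18.9 in R98S and 3.71 in WT clones), and its change ran from 1.10 to 2.99 over the alternatives. DESeq2 called *Kif5a* (adjusted p = 0.0196), as did limma without R98S clone 35 (0.0254).

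*Kif16b*, *Kif1b*, *Kif21b* and *Kif3c*, which serve endosomes, synaptic vesicle precursors, microtubule dynamics or neuronal cargo, had mRNA changes of -0.15 to 0.30, RPF changes of -0.17 to 0.11 and TE changes of -0.24 to 0.22. *Kif3a* and *Kif3b* form the kinesin-2 heterodimer that carries cargo into cilia, and their RPF changes had opposite signs, -0.58 ± 0.23 and 0.41 ± 0.27 (limma adjusted p = 0.175 and 0.421). Over the alternatives these changes were -0.75 to -0.41 and 0.23 to 0.59. *Kif3a* RPF did not overlap between genotypes and *Kif3b* RPF did. *Kif13a*, a carrier of endosomal cargo, had an mRNA change of -0.23 ± 0.21 (-0.44 to -0.09 over the alternatives) and a TE change of 0.42 ± 0.23. *Kif13b* had a TE change of -0.78 ± 0.40. RPF of *Kif13b* was lower in all R98S clones (-0.51 ± 0.20, limma adjusted p = 0.180) and was called only after the chromosome median was removed (-0.67, 0.0924). Of the transport kinesins tested, *Kif1c* had the widest spread in RPF as a ratio of highest to lowest clone, from 65.9 (WT clone 28) to 437 (R98S clone 35), and its RPF change of 0.51 ± 0.54 had the other sign without WT clone 28 (-0.20). For mRNA, WT clone 28 was the lowest clone for 9 of 13 transport kinesins.

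Of 11 listed partners that link kinesins to cargo, 9 were found in the mRNA table and 8 tested, and 1 was called higher in limma, against 3.03% of all genes. *Mapk8ip1*, which encodes a JNK scaffold that binds the kinesin light chain, had mRNA of 100.0, 134 and 62.8 in the R98S clones and 5.37, 16.5 and 36.8 in the WT clones. The R98S clones were above all WT clones, a rise of 2.56 ± 0.61 (limma adjusted p = 0.0516) that was no longer called without R98S clone 11 (0.180) or 13 (0.218). *Kifap3*, the accessory subunit of the *Kif3a* and *Kif3b* motor, had RPF of 177, 140.0 and 153 in the R98S clones and 274, 401 and 175 in the WT clones. R98S clone 11 overlapped with WT clone 36, and the change of -0.78 ± 0.28 was not called (limma adjusted p = 0.151), except by DESeq2 (0.0544) and in limma without WT clone 36 (0.0768). The mRNA change of *Kifap3* was -0.49 (limma adjusted p = 0.447), or -0.74 to -0.12 over the alternatives. Its TE change was -0.48 to -0.03 over the alternatives and was not called. The other largest changes of the list were those of *Klc3* mRNA (0.53; 0.29 to 1.02 over the alternatives), of *Mapk8ip3* RPF (-0.59; -0.80 to -0.29) and TE (-0.35; -0.60 to -0.18) and of *Trak2* RPF (-0.53; -0.67 to -0.33) and TE (-0.41; -0.53 to -0.25). None of the 7 partners tested for RPF and the 6 tested for TE was called in limma, with 2 and 0 at an unadjusted p under 0.05 (20.3% and 7.85% of all genes), 0 and 0 by edgeR and 1 and 0 by DESeq2 (11.4% and 0.597%).

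Dynein, which moves cargo the opposite way along microtubules, and its activator dynactin were listed with 17 genes, of which 15 were tested for mRNA. The mRNA of *Dync1li2*, a light intermediate chain, was the only one of the 15 called in limma, where 3.91% of all genes were lower (5 at an unadjusted p under 0.05, 2 by edgeR and 3 by DESeq2, where the shares of all genes were 17.9%, 7.10% and 11.3%) and was lower, with 818, 739.5 and 785 in the R98S clones and 1042, 1296 and 1269.5 in the WT clones. All R98S clones were below all WT clones, a change of -0.62 ± 0.17 (limma adjusted p = 0.0901). The call ended without the filter on low values (0.124) and without R98S clone 11 (0.251), 13 (0.290), 35 (0.138), WT clone 29 (0.191) or 36 (0.253) (limma adjusted p in brackets). *Dctn5*, a dynactin subunit, had a change of 0.55 ± 0.16 and all R98S clones above all WT clones (limma adjusted p = 0.105), and was called by edgeR (0.0984), by DESeq2 (0.0412) and in limma without WT clone 28 (0.0774). *Dync1li1* mRNA (-0.52, limma adjusted p = 0.121) was called by DESeq2 (0.0554). RPF was lower for *Dync1li1*, the other light intermediate chain (-0.59 ± 0.18, limma adjusted p = 0.0974), and *Dctn4*, also of dynactin (-0.69 ± 0.20, 0.0808), which is 2 of 14, against 4.62% of all genes (6 at an unadjusted p under 0.05, 2 by edgeR and 3 by DESeq2, where the shares of all genes were 20.3%, 8.43% and 11.4%). The *Dync1li1* call ended without R98S clone 11 (0.231), 13 (0.319), WT clone 28 (0.224) or 36 (0.204), and the *Dctn4* call without R98S clone 11 (0.237), 13 (0.269), WT clone 28 (0.169) or 29 (0.171). The heavy chain gene *Dync1h1* had RPF of 2606, 2688 and 4388 in the R98S clones and 13659, 3064 and 3825 in the WT clones. WT clone 28 stood far above the other clones, and the change was -0.79 ± 0.46 (limma adjusted p = 0.369), or -0.13 without that clone. TE was called for 0 of 14 in limma (0 at an unadjusted p under 0.05, 0 by edgeR and 0 by DESeq2), where *Dync1h1* (-0.73; -1.15 to 0.03 over the alternatives, above 0 without WT clone 28), *Dync1i2* (-0.40; -0.55 to -0.24) and *Dctn1* (0.39; 0.34 to 0.43) had the largest changes.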

How the data were processed

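The signal values were counts per gene that the authors mapped with Bowtie2 and TopHat2 2.0.11 to mm10 (GRCm38) and normalized with DESeq2 separately for mRNA (exons) and RPF (coding sequence, without the first 15 and last 5 codons), as deposited. Division by the smallest step of each library returned whole reads for 100% of values (tolerance 0.001); 1 read was worth 0.784 to 2.69 in mRNA and 0.532 to 1.68 in RPF libraries.

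R98S and WT clones were compared with limma 3.58.1 (R 4.3.3, trend) on log2(value + 1), for TE on the difference of RPF and mRNA in each clone, with Benjamini-Hochberg adjustment. Genes with a mean of at least 10 were tested for mRNA and RPF, and genes with at least 10 in every library for TE. The pairing of RPF with mRNA came from the clone numbers in the labels: within genotypes their deviations from the group mean had a mean correlation of 0.519 (0.218 to 0.681). Alternatives were pseudocounts of 0.5 and 5, no filter, edgeR 4.0.16 and DESeq2 1.42.0 on whole reads, each clone left out, the chromosome median removed and no replicate block. For genes other than *Kif24*, ranges and counts over the alternatives cover 11 of these. They leave out the fits with the chromosome median removed and with no replicate block. edgeR called 805 genes for mRNA, 808 for RPF and 3 for TE, and DESeq2 called 1283, 1095 and 54. The fits were tested on simulated data. The Babel test of the study was not run, as the tool was not available.

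Genes were named by a rule: *Kif24*, kinesins past the threshold, the 3 largest rises and falls per assay, the extremes per length, genes of the lists (cargo partners, spindle and cytokinesis, centriole cap, dynein and dynactin) past the threshold or with the 3 largest changes, and genes within 200 kb of *Kif24*, of which those that passed the filter are named. Further kinesins are named so that every member is accounted for, and the mRNA of *Kif5a* and the RPF of *Kif13b* were singled out with their values already in view. The members and lists were chosen with earlier results of these data known, and *Kif24* was singled out with its TE result known. Lengths came from GENCODE vM21 and all 42 kinesins were matched in it.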

Additional observations from a re-analysis of the deposited data

How the results depend on the processing

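Leaving out 1 clone at a time gave 316 to 1109 genes with changed mRNA, 226 to 1156 with changed RPF and 0 to 3 with changed TE, and among kinesins 1 to 3 with changed RPF and 0 to 1 with changed TE. DESeq2 called 1283 genes for mRNA and 54 for TE, and without the filter on low values limma called 4 genes for TE. The *Kif24* TE change was -3.61 to -2.85 with 1 clone left out, and its mRNA change passed the threshold in every alternative run. RPF and mRNA libraries were paired by clone; with no replicate block the *Kif24* TE change was -3.31 (limma adjusted p = 0.0224), with 3 genes and 1 kinesin called for TE, so it changed no other call of a kinesin. Among the genes and assays picked by the naming rule, signs reversed when 1 clone was left out for mRNA of *Kif15* (-0.40 to 0.0168) and *Cep290* (-0.13 to 0.46), RPF of *Kif1c* (-0.20 to 0.89) and *Ubap2* (-0.11 to 0.31), and TE of *Kif1c* (-0.18 to 0.60) and *Dync1h1* (-1.15 to 0.0292); none of these was called in limma, and the cause was not tested. Kinesins outside the rule with changes near 0 were not listed. For the genes other than *Kif24* picked by the naming rule, in the assays it picked, 11 results were called in limma on all clones, and 87 of their alternatives kept the call while 34 lost it. A further 61 were not called, and 22 of their alternatives gained a call while 649 did not; *Kif5a* mRNA, *Kif13b* RPF and kinesins named only to account for every member are not in these counts. Each genotype had 3 clones, so a difference between genotypes rests on 3 against 3 single-cell-derived clones, and leaving out 1 leaves 2. The RPF counts of *Kif24* were low, and gene totals do not locate its mRNA reads. Both tables were normalized separately, so ratios compare clones and genes without an absolute scale. Reads that fit both *Kifc1* and *Kifc5b* may be missing from their counts, and whether counting used the strand was not stated. WT clone 28 had the shallowest mRNA library.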
